A study of Homo sapiens with 6 samples.

Results

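The ABC transporter family was taken as every gene symbol made of ABC, a subfamily letter from A to G and a number, which gave 46 of the 26255 symbols in the table. RNA was sequenced from MDA-MB-231, an established human triple-negative breast cancer cell line, in which GPR81, the cell surface receptor for lactate, was targeted. Of 6 libraries, 3 are labelled shNT, cells with a non-targeting control hairpin RNA, and 3 are labelled shGPR81, cells with a hairpin RNA against the receptor. The labels name no other treatment, and both groups carried a lentiviral hairpin and had been through puromycin selection, as the study's methods describe. The labels do not say which of the study's hairpins the sequenced cells carried, or whether the 3 libraries of a group came from separate cultures, so p-values measure the spread between these libraries, which may be technical. Lactate signalling through GPR81 has been linked to ABCB1, the drug efflux pump P-glycoprotein, and the comparison asked how the whole family stood when the receptor was targeted.

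ABC proteins bind ATP at a conserved cassette and, in most subfamilies, use its hydrolysis to move a substrate across a membrane. Members of ABCA and ABCG handle lipids and sterols, and ABCG also holds the drug pump ABCG2. ABCB and ABCC hold other multidrug pumps and several carriers of mitochondria and lysosomes, and ABCD proteins serve peroxisomes and lysosomes. ABCE and ABCF proteins have the ATP-binding cassettes without membrane spans and act on ribosomes.

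The start regions of 3 members are shown. ABCG1, the only member called as different below, had no window among those used and is not shown. ABCB1 was listed at 0 in every library, and ABCA1 and ABCG2 were both lower in all 3 libraries labelled shGPR81 than in any shNT library. The same held for 12.7% of all genes tested, and neither ABCA1 nor ABCG2 was called. Each sequence runs from 250 bases before to 50 bases after a RefSeq transcription start on GRCh38.p14, all on the minus strand. Where a gene has several starts, the start with the highest GC content is given. Capitals mark the GC box GGGCGG, the TATA box TATAAA and the xenobiotic response core GCGTG, on either strand.
ABCB1, chr7:87600835-87601134: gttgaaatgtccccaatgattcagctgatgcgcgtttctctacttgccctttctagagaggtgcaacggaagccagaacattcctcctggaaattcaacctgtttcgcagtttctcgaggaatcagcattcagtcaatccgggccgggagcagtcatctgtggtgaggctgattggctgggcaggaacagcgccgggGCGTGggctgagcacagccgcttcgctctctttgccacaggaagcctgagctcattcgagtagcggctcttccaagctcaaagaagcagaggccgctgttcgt
ABCA1, chr9:104928106-104928405: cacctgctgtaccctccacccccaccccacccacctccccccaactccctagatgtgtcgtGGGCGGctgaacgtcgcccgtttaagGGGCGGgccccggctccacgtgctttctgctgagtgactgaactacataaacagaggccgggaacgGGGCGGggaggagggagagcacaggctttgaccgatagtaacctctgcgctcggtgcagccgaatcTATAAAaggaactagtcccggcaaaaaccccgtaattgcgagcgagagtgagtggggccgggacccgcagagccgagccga
ABCG2, chr4:88158810-88159109: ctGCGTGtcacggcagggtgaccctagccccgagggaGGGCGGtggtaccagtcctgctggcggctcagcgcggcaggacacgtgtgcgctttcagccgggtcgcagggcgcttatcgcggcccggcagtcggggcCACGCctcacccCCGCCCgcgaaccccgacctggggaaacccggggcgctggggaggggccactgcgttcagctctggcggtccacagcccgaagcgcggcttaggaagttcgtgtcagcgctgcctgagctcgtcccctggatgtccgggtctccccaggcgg
The ABCB1 window, with 55.3% GC, held 1 xenobiotic response core and none of the other letters searched. In the ABCA1 window, with 62.7% GC, there were 3 GC boxes and 1 TATA box. In the ABCG2 window, with 72.3% GC, there were 2 GC boxes and 2 xenobiotic response cores. RefSeq windows were matched for 35 of the 46 members, 53 windows in all. The GC box was in 47.2% of these and in 45.0% of all 35116 windows, the xenobiotic response core in 43.4% and 36.5%, and the TATA box in 15.1% and 11.5%. The cAMP response element TGACGTCA was in 1.89% of the members' windows, that of ABCE1, and in 1.85% of all. The nuclear receptor half-site AGGTCA was in 5.66%, those of ABCD4, ABCF1 and ABCG2, and in 13.8% of all. For ABCG2 the half-site was in the window of another start and not in the one shown. These are matches of letters on both strands and not sites of binding.

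HCAR1, the gene of GPR81, was at 0.968, 1.02 and 1.36 FPKM (fragments per kilobase of transcript, scaled to the size of the library) in shNT and at 0.978, 0.891 and 0.396 FPKM in the libraries labelled shGPR81. The groups overlapped, and the log2 fold change of -0.57 (SE 0.31) was not significant (adjusted p = 0.380, limma). It ranged from -0.78 to -0.22 with 1 library left out, the latter without shGPR81 replicate 3. The targeted gene was therefore not shown to be lower by these libraries, which are called by their labels. The study itself reported reduced GPR81 in both of its hairpin lines, by RT-qPCR and western blotting. The defining genes of MDA-MB-231, VIM, CD44, CAV1, AXL, MSN and EGFR, were all expressed, and of 12 luminal breast markers ESR1, PGR and CDH1 were listed at 0 in all 6 libraries. The other 9 were expressed, TFF1 and TFF3 of them lower in shGPR81, with summed levels of 210 to 247 FPKM in shNT and 233 to 259 FPKM in shGPR81. Depth was similar, with a relative depth of 1 to 1.07 between libraries and roughly 12055463 to 12901909 reads per library, as estimated from the steps between low FPKM values. Values were tested as log2(FPKM + 0.1) with limma over 14349 genes, and calls needed both a fold change over 1.5 and p under 0.05 after Benjamini-Hochberg adjustment.

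MDA-MB-231 cells expressed a broad set of ABC genes. Of the 46 members, 29 were tested, that is, they reached 0.1 FPKM in at least 3 libraries. Of the tested members, 22 had a mean of at least 1 FPKM and 9 of at least 10 FPKM over the 6 libraries. The other 17 were not tested: 9 were listed at 0 in every library and 8 were above 0 but under the filter. Tested were 7 of 12 ABCA genes, 5 of 9 ABCB genes, 8 of 12 ABCC genes, 3 of 4 ABCD genes, the 1 ABCE gene, all 3 ABCF genes and 2 of 5 ABCG genes. Per kilobase of transcript, the highest levels were those of the ribosome-associated ABCF2 and ABCF1, with means of 70.9 and 69.1 FPKM, and of the ribosome recycling factor ABCE1, with 54.7 FPKM. The peroxisomal ABCD3 followed at 41.6 FPKM and the lysosomal ABCD4 at 22.1 FPKM. ABCF2 and ABCF1 overlapped in their ranges over the libraries, as did ABCD4, from 19.9 to 25.8 FPKM, and the drug pump ABCC1, from 17.7 to 22.2 FPKM.

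**Figure D1:**
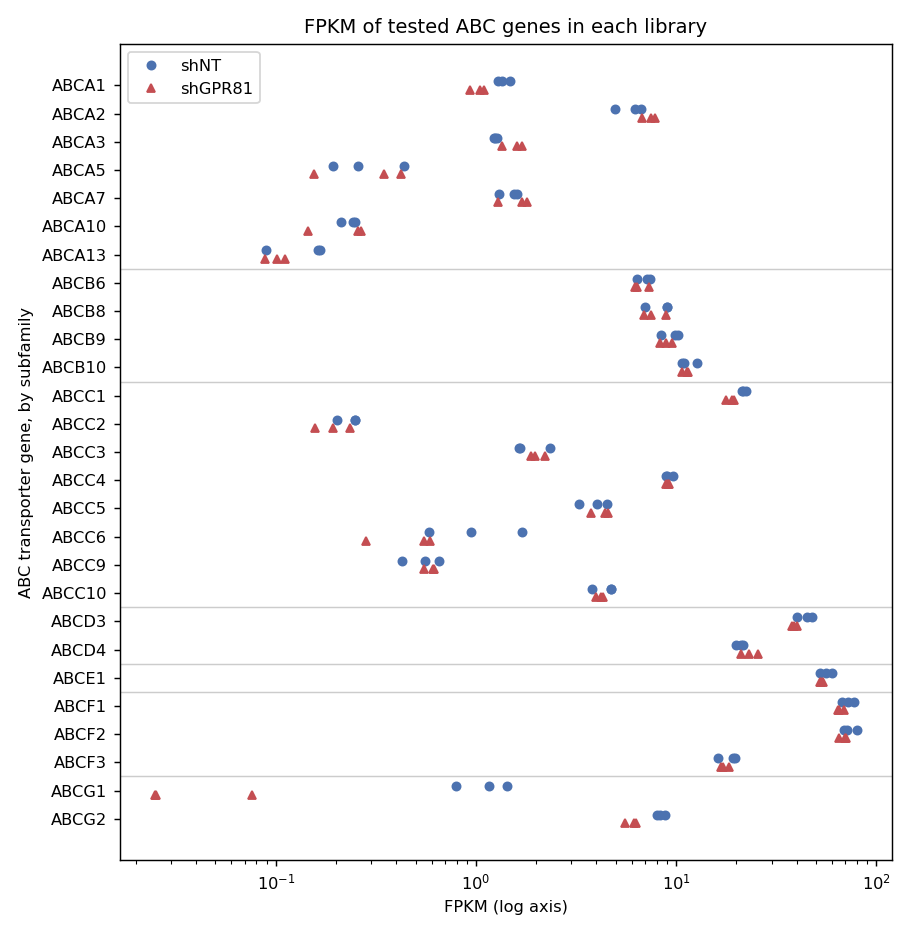
FPKM on a log axis of 27 of the 29 tested ABC genes, ordered by subfamily, with 1 blue circle per shNT library and 1 red triangle per library labelled shGPR81. Levels run from about 0.1 FPKM for ABCA13 to about 71 FPKM for ABCF2, and ABCG1 stands out with all 3 shGPR81 libraries far to the left of shNT.

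Between the groups, 1 tested member was called lower, ABCG1, against 1.59% of all genes tested, and 0 were called higher, against 0.955%. In either direction 2.54% of all genes were called. By adjusted p alone, at any fold, ABCG1 and ABCG2 passed, both lower, against 3.07% of all genes, and 0 members passed on the higher side, against 2.06%. At an unadjusted p under 0.05 there were 7 members, against 19.5% of all genes. The 3 libraries labelled shGPR81 lay below all shNT libraries for 4 members, ABCA1, ABCC1, ABCG1 and ABCG2, against 12.7% of all genes, and above them for 2, ABCA2 and ABCA3, against 12.9%. Of the tested members 20 had a log2 fold change below 0 and 9 above 0, so that 69.0% were below 0, against 48.1% of all genes. Their median was -0.08, beside 0.01 over all genes, and it moved to -0.13 without shNT replicate 1 and to -0.039 without shNT replicate 3. For 18 members the 95% interval of the log2 fold change lay wholly inside a change of 1.5-fold in either direction. Summed over all members, FPKM was 394, 402 and 409 in shNT and 376, 372 and 381 in shGPR81. The ABCF genes held the largest part of this sum, with means of 164 FPKM in shNT and 152 FPKM in shGPR81. For ABCA the mean sum was higher in shGPR81, 12.2 beside 10.8 FPKM, and for every other subfamily it was lower.

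**Figure D2:**
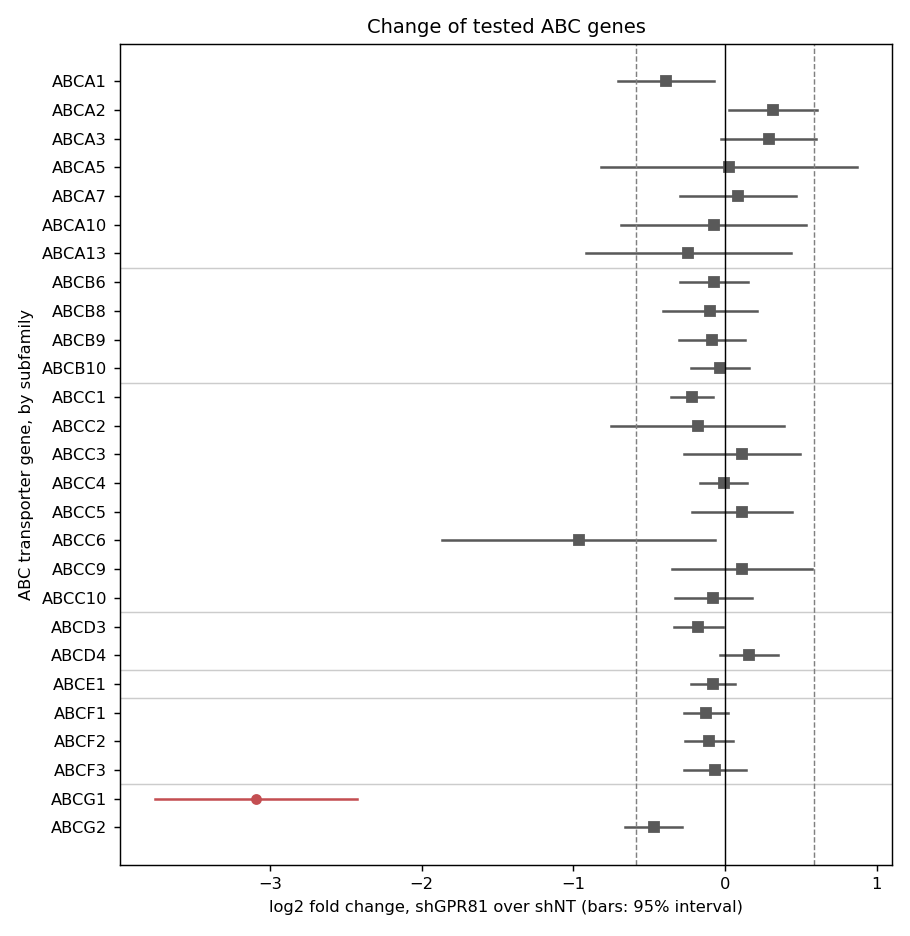
Log2 fold change of the libraries labelled shGPR81 over shNT for 27 of the 29 tested ABC genes, by subfamily, with 95% intervals from limma. Dashed lines mark 1.5-fold in either direction, and ABCG1 (red circle) at -3.09 is the only gene called, while ABCG2 at -0.47 lies inside the fold threshold.

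The multidrug pumps differed widely in level. ABCB1, at 87132333 to 87342639 on the minus strand of chromosome 7 (GRCh37), was listed at 0 FPKM in all 6 libraries, so no comparison between the groups could be made for it. Its neighbour ABCB4, the phosphatidylcholine floppase of bile, was listed at 0.0200 FPKM in shNT replicate 1 and at 0 elsewhere. ABCB5, a pump best known in melanoma, stood at 0.0174, 0 and 0.0521 FPKM in shNT, which are 1, 0 and 3 reads, and at 0 in shGPR81. ABCB11, the bile salt export pump, was at 0 throughout. The P-glycoprotein branch of ABCB was thus at or near 0 in both groups.

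ABCG2, the breast cancer resistance protein, which exports drugs, urate and porphyrins, was the most abundant ABCG gene. It lies on chromosome 4 from 89011302 to 89152780 on the minus strand. ABCG2 was at 8.78, 7.99 and 8.26 FPKM in shNT and at 5.58, 6.15 and 6.28 FPKM in shGPR81. All 3 shGPR81 libraries were below all shNT libraries, with means of 8.34 ± 0.404 and 6.002 ± 0.372 FPKM (SD, n = 3). The log2 fold change of -0.47 (SE 0.08, 95% interval -0.66 to -0.28, adjusted p = 0.0177, limma) passed the threshold on adjusted p and stayed inside the fold threshold. With each library left out in turn adjusted p was 0.0283 to 0.0793. It was above 0.05 without shNT replicate 2 and without shGPR81 replicate 1, 2 or 3. With the replicate number as a block it was 0.0485.

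ABCC1, the multidrug resistance protein that exports glutathione conjugates, was the highest of the drug pumps. It was at 21.3, 21.6 and 22.2 FPKM in shNT and at 17.7, 18.9 and 19.5 FPKM in shGPR81, again without overlap. The difference was small, a log2 fold change of -0.22 (SE 0.06, 95% interval -0.35 to -0.08, adjusted p = 0.0891, limma), and did not pass. ABCC1 lies on chromosome 16 from 16042995 to 16237114 on the plus strand.

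ABCC6, a liver and kidney transporter involved in ATP release, lies beside ABCC1, from 16243422 to 16317379 on the minus strand. Relative to its mean, ABCC6 varied most among the tested ABCC genes, with 0.941, 1.69 and 0.583 FPKM in shNT and 0.586, 0.283 and 0.551 FPKM in shGPR81. The groups overlapped, and the log2 fold change was -0.97 (SE 0.39, 95% interval -1.87 to -0.06, adjusted p = 0.225, limma). It ranged from -1.30 to -0.60 with 1 library left out, the latter without shNT replicate 2, and was -0.46 with a pseudocount of 1 FPKM. Its near-identical pseudogene copies can take up its reads, so its values are uncertain. The copy ABCC6P2 was at 1.46, 1.70 and 2.33 FPKM in shNT and at 2.31, 2.75 and 1.93 FPKM in shGPR81.

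The remaining organic anion and nucleotide pumps of ABCC did not pass the test. ABCC4, which exports cyclic nucleotides and prostaglandins, was nearly level, at 9.67, 8.99 and 8.89 FPKM in shNT and 8.95, 9.25 and 9.15 FPKM in shGPR81, with a log2 fold change of -0.01 (95% interval -0.17 to 0.15). ABCC5, also an exporter of cyclic nucleotides, was at 4.52, 4.004 and 3.26 FPKM in shNT and at 4.56, 4.40 and 3.74 FPKM in shGPR81. It was among the 5 largest differences above 0, at only 0.11 (SE 0.14, 95% interval -0.21 to 0.44, adjusted p = 0.736, limma). ABCC3, a basolateral exporter of conjugated bile acids, was at 1.66, 2.35 and 1.65 FPKM in shNT and at 2.22, 1.97 and 1.88 FPKM in shGPR81. ABCC10, a pump for lipophilic drugs, spanned 3.81 to 4.73 FPKM over all libraries. ABCC2, which exports conjugates into bile, spanned 0.157 to 0.249 FPKM. The groups overlapped for each of these genes.

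ABCC9, the sulphonylurea receptor of muscle-type potassium channels, was at 0.652, 0.558 and 0.428 FPKM in shNT and at 0.617, 0.549 and 0.608 FPKM in shGPR81, a log2 fold change of 0.11 (SE 0.20, 95% interval -0.35 to 0.57, adjusted p = 0.819, limma). These values are 73, 64 and 48 reads and 74, 65 and 72 reads, so the groups overlapped. Both ABCC5 and ABCC9 turned to below 0 when shNT replicate 3 was left out. ABCC8, the pancreatic relative of ABCC9, was listed at 0, as were ABCC12 and ABCC13, a locus annotated as a lncRNA. ABCC11, known for its part in ear wax type, was at 0.0341 FPKM in shNT replicate 1 and at 0 elsewhere.

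Among the sterol and lipid carriers, ABCG1 changed most. ABCG1 moves cholesterol toward high-density lipoprotein particles and is found at 43619799 to 43717354 on the plus strand of chromosome 21 (GRCh37). It was at 0.792, 1.16 and 1.42 FPKM in shNT and at 0.0249, 0.0252 and 0.0757 FPKM in shGPR81. Even the highest shGPR81 library was far below the lowest shNT library. With means of 1.12 ± 0.316 and 0.0419 ± 0.0292 FPKM (SD, n = 3), the log2 fold change was -3.09 (SE 0.28, 95% interval -3.76 to -2.43, adjusted p = 0.00172, limma). In bulk RNA a lower level in every cell and fewer cells that express the gene cannot be told apart.

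The fall of ABCG1 rests on few reads. Counted in the smallest step of its values, shGPR81 held 1, 1 and 3 steps and shNT about 29.7, 44.4 and 53.3. The shNT values are not whole multiples of the step, so whole reads were not recovered for ABCG1. With each step assumed to be 1 read, the ratio was 26.7-fold with an exact binomial counting interval of 11.2 to 83.8. This interval rests on that assumption and covers counting error alone. ABCG1 was the 1 member that reached the filter on low values through shNT alone, with 3 shNT and 0 shGPR81 libraries at the filter. A gene as low in both groups as ABCG1 was in shGPR81 would not have been tested. Without any filter it was still called (adjusted p = 0.00446, limma). It was called in 6 of 6 fits that each left out 1 library, with adjusted p from 0.00213 to 0.0165. The size depended on the pseudocount, from -4.54 with 0.01 FPKM to -1.02 with 1 FPKM added.

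ABCA1, which loads cholesterol onto apolipoprotein A-I and often acts beside ABCG1, lies on chromosome 9 from 107543287 to 107690436 on the minus strand. It was at 1.48, 1.29 and 1.35 FPKM in shNT and at 0.934, 1.09 and 1.05 FPKM in shGPR81. In whole steps these are 105, 94 and 96 against 71, 82 and 79, with no overlap between the groups. Such steps are reads only up to a factor common to all libraries. The log2 fold change of ABCA1, -0.39 (SE 0.14, 95% interval -0.71 to -0.07), did not pass (adjusted p = 0.169, limma). After each library was centred on its chromosome ABCA1 was at -0.50 and did not pass either (adjusted p = 0.112, limma).

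**Figure D3:**
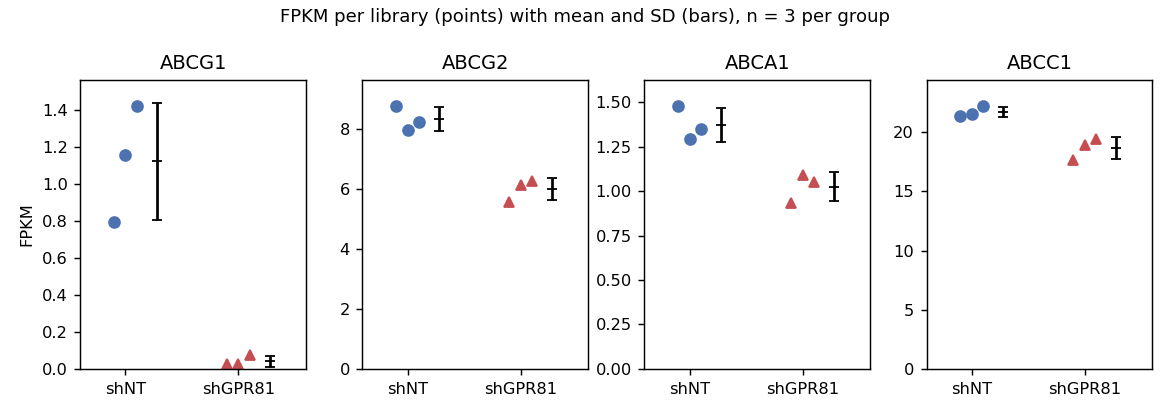
FPKM of ABCG1, ABCG2, ABCA1 and ABCC1 in each library (blue circles shNT, red triangles shGPR81), with mean and SD (n = 3) as black bars beside the points and axes from 0. These are the 4 tested members whose shGPR81 libraries lie below every shNT library, and as a ratio the groups stand farthest apart for ABCG1.

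The other ABCG genes were at or near 0. ABCG4, a sterol carrier of brain, was at 0.106, 0.145 and 0.0425 FPKM in shNT and at 0.0994, 0.0604 and 0.0805 FPKM in shGPR81, or 5, 7 and 2 reads against 5, 3 and 4. ABCG5 and ABCG8, neighbours on chromosome 2 whose products together export plant sterols, were both listed at 0.

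The members with the largest differences above 0 were also lipid carriers. ABCA2, a lysosomal transporter linked to sphingolipid handling, was at 4.93, 6.25 and 6.64 FPKM in shNT and at 7.49, 6.79 and 7.87 FPKM in shGPR81. ABCA3, the phospholipid carrier of surfactant-forming lamellar bodies, was at 1.24, 1.28 and 1.23 FPKM in shNT and at 1.70, 1.36 and 1.61 FPKM in shGPR81, or 110, 116 and 109 reads against 161, 127 and 151. For both genes every shGPR81 library was above every shNT library. ABCA2 had a log2 fold change of 0.32 (SE 0.12, 95% interval 0.03 to 0.61, adjusted p = 0.214, limma). For ABCA3 it was 0.29 (SE 0.13, 95% interval -0.02 to 0.60, adjusted p = 0.294, limma). Neither passed. Genes of chromosome 9, where ABCA2 lies, had a median log2 fold change of 0.10, and ABCA2 was at 0.21 after each library was centred on its chromosome.

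The rest of ABCA was low. ABCA7, a phospholipid carrier known from Alzheimer disease genetics, spanned 1.29 to 1.79 FPKM with overlapping groups. ABCA5, ABCA6, ABCA8, ABCA9 and ABCA10 form a cluster on chromosome 17, and of these ABCA5, from 0.155 to 0.436 FPKM, and ABCA10, from 0.146 to 0.265 FPKM, were tested. ABCA6 and ABCA8 were listed at 0, and ABCA9 had 0, 0 and 1 reads in shNT and 1 read in each shGPR81 library. ABCA13 was at 0.0896, 0.167 and 0.162 FPKM in shNT and at 0.112, 0.101 and 0.0888 FPKM in shGPR81. ABCA12, the lipid carrier of skin barrier granules, had at most 1 read in any library. ABCA4, the retinal transporter of photoreceptors, had 6, 1 and 3 reads in shNT and 3, 0 and 0 in shGPR81.

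The carriers of mitochondria and lysosomes in ABCB were expressed and differed little. ABCB10, needed for haem synthesis in red cell precursors, was at 12.7, 11.0 and 10.7 FPKM in shNT and at 11.4, 11.4 and 10.7 FPKM in shGPR81. ABCB6, a porphyrin transporter, spanned 6.26 to 7.42 FPKM, and ABCB8, of the mitochondrial inner membrane, spanned 6.93 to 9.02 FPKM. ABCB9, the lysosomal peptide transporter TAPL, spanned 8.35 to 10.2 FPKM. These genes had overlapping groups and a 95% interval inside 1.5-fold in either direction. Over the 5 tested ABCB genes the median log2 fold change was -0.07.

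In ABCD, no member passed the test. ABCD3, the abundant peroxisomal membrane protein for branched fatty acids and bile acid precursors, was at 47.5, 44.9 and 40.3 FPKM in shNT and at 38.6, 40.4 and 38.1 FPKM in shGPR81. Its groups overlapped by a narrow margin, and the log2 difference was -0.18 (SE 0.07, 95% interval -0.34 to -0.02, adjusted p = 0.214, limma). ABCD4, which takes part in the release of cobalamin from lysosomes, differed in the other direction, with 19.9, 21.1 and 21.5 FPKM in shNT and 25.8, 21.0 and 23.1 FPKM in shGPR81. This was a log2 fold change of 0.16 (SE 0.08, 95% interval -0.03 to 0.35, adjusted p = 0.353, limma). ABCD2, a peroxisomal carrier of fatty acids, had 0, 0 and 2 reads in shNT and 3, 2 and 2 reads in shGPR81.

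The ribosome-associated members were high in both groups and all slightly below 0. ABCF1, a partner of the initiation factor eIF2, was at 67.6, 71.9 and 77.1 FPKM in shNT and at 64.5, 64.8 and 68.9 FPKM in shGPR81, which gave a log2 fold change of -0.13 (SE 0.06, 95% interval -0.27 to 0.02, adjusted p = 0.324, limma). ABCF2 was at 69.0, 71.2 and 80.2 FPKM in shNT and at 65.3, 69.4 and 70.3 FPKM in shGPR81, a log2 fold change of -0.10 (SE 0.07, 95% interval -0.26 to 0.06, adjusted p = 0.485, limma). ABCE1, which splits ribosomes after termination, was at 60.4, 56.2 and 52.3 FPKM in shNT and at 53.9, 52.6 and 53.1 FPKM in shGPR81, with -0.08 (SE 0.06, 95% interval -0.22 to 0.06, adjusted p = 0.557, limma). The groups overlapped in each case. ABCF3, thought to act on ribosomes as well, was at 16.1, 19.2 and 19.7 FPKM in shNT and at 16.8, 17.2 and 18.3 FPKM in shGPR81.

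The fall of ABCG1 was shared by genes beside it on chromosome 21. This was looked at after its value was seen, with a window of 1000 kb on either side. Of 17 other tested genes in the window, 6 were called lower and 0 higher, against 1.59% and 0.955% of all genes. All 6 lay on the side toward the end of the long arm, where they were the 6 nearest of 10 tested genes. On the side of the centromere 0 of 7 were called, the nearest being ZBTB21 at 189 kb, with a log2 fold change of -0.04. On that side MX1 and MX2, interferon-induced antiviral genes farther away, had groups without overlap at -0.30 and -0.67 and were not called.

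The called neighbours begin with the trefoil factors, small secreted peptides that protect mucous surfaces. TFF3, 14.4 kb from ABCG1, was at 3.08, 3.85 and 4.11 FPKM in shNT and at 0.640, 0.648 and 0.486 FPKM in shGPR81. TFF2, at 49.1 kb, was at 1.89, 3.40 and 2.61 FPKM in shNT and at 0.407, 0.412 and 0.961 FPKM in shGPR81. TFF1, at 65.0 kb, was at 7.15, 6.23 and 8.67 FPKM in shNT and at 0.238, 0.483 and 0.483 FPKM in shGPR81. The groups did not overlap for any of the 3, whose log2 fold changes were -2.45, -2.03 and -3.92. TFF1 values stand for 28, 25 and 34 reads against 1, 2 and 2, so these are low counts too.

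The other called neighbours are of mixed function. The serine protease gene TMPRSS3, at 74.6 kb, was at 1.35, 1.24 and 0.954 FPKM in shNT and at 0.179, 0.181 and 0.261 FPKM in shGPR81, a log2 fold change of -2.06. SLC37A1, a sugar phosphate carrier at 199 kb, had 171, 178 and 173 reads in shNT and 110, 127 and 120 reads in shGPR81, with -0.61. PDE9A, a cyclic GMP phosphodiesterase at 356 kb, was at -0.82 (adjusted p = 0.0344, limma). TFF1, TFF3 and TMPRSS3 were called in 6 of 6 fits that left out a library, TFF2 and SLC37A1 in 3 of 6 and PDE9A in 0 of 6. WDR4, at 546 kb, was next and was at 0.12. The 82 genes of chromosome 21 with a mean of at least 5 FPKM had a median of -0.02. ABCG1 and its called neighbours had lower means and were not among them.

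**Figure D4:**
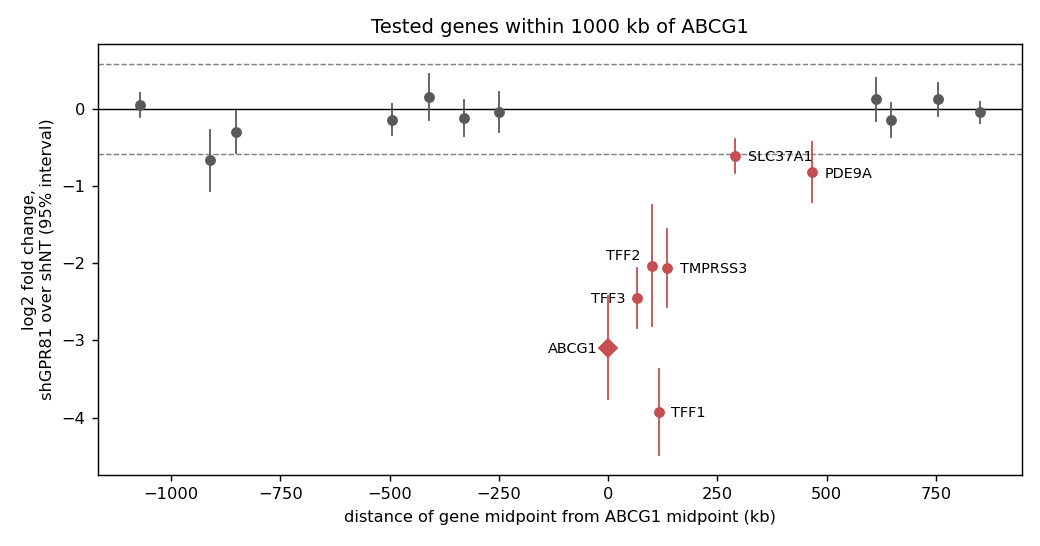
Log2 fold change (95% interval) of ABCG1, drawn as a diamond, and of the 17 other tested genes within 1000 kb, against the distance of their midpoints from that of ABCG1 in kb, positive toward the end of the long arm. Dashed lines mark 1.5-fold, red marks called genes, and all 6 called neighbours lie on the positive side.

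The same window was counted around the 3 other members whose shGPR81 libraries lay below shNT. Around ABCA1 0 of 8 tested genes were called, and around ABCC1 0 of 14, against 2.54% of all genes. Around ABCG2, of 13 tested genes 0 were called lower and 1 higher, the matrix protein gene SPP1, at 1.37, 2.09 and 1.79 FPKM in shNT and 3.13, 2.98 and 3.99 FPKM in shGPR81, with a log2 fold change of 0.91. SPP1 was called in 1 of 6 fits that left out a library. TFF1 and TFF3 also stand among the 12 luminal breast markers examined, of which 9 were tested. These 2 were called lower and 0 were called higher, against 1.59% and 0.955% of all genes. The summed FPKM of the list overlapped between the groups. KRT19 of that list was at 0.53 (adjusted p = 0.0450, limma), inside the fold threshold. The part of luminal gene expression in the ABCG1 result was not tested.

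Genes that work with the transporters were compared in lists, and 0 genes were called in any of the lists of partners and regulators. Of all genes tested, 2.54% were called and 48.1% were below 0, and the lists are short. ABCG1 and ABCA1 are known targets of the liver X receptors. Of 18 genes for these receptors, their targets and sterol export, 18 were tested, 7 were below 0 and the median log2 fold change was 0.06. The receptors NR1H2 and NR1H3 were at 0.25 and 0.16 and their partner RXRA at 0.37 (adjusted p = 0.0983, limma). RXRA also lies on chromosome 9 and was at 0.26 after centring on it (adjusted p = 0.138, limma). The target LPCAT3 was at -0.23 and the target SMPDL3A at 0.50 (adjusted p = 0.121, limma). For 15 tested genes of drug response and glutathione supply the median was 0.00, and for 16 of the lactate receptor pathway it was -0.03. None of these lists had a gene with an adjusted p under 0.05.

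**Figure D5:**
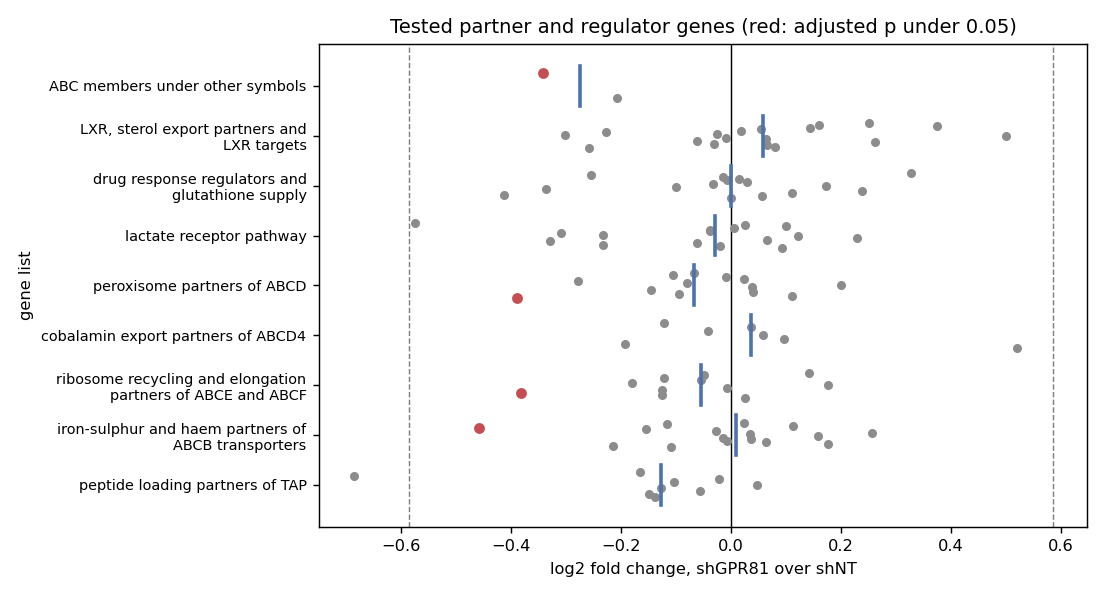
Log2 fold change of the tested genes in each list of partners and regulators, with 1 point per gene (spread vertically for legibility), the list median as a blue line, and 1.5-fold as dashed lines. Red points have an adjusted p under 0.05 and all lie between the fold thresholds.

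In the lists for the organelle carriers, single genes passed on adjusted p but not on fold. Of 13 peroxisomal genes, the thioesterase ACOT8 was at -0.39 (adjusted p = 0.0421, limma). The translation factor gene EIF2S2, of 11 tested ribosomal partners, was at -0.38 (adjusted p = 0.00390, limma). The cysteine desulphurase NFS1, of 16 iron-sulphur and haem genes, was at -0.46 (adjusted p = 0.00849, limma). All 3 lie on chromosome 20, where the median log2 fold change over 267 genes was -0.40 and where 0 ABC members lie. With a library left out, adjusted p was under 0.05 in 1, 6 and 4 of 6 fits. Centred on their chromosome they were at -0.07, -0.06 and -0.14 and did not pass. The 7 cobalamin genes had a median of 0.04 and none passed.

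TAP1 and TAP2, which pump peptides into the endoplasmic reticulum for antigen presentation, and CFTR, the chloride channel, are ABC proteins under other names and were outside the rule. TAP1 was at 25.6, 26.2 and 27.4 FPKM in shNT and at 20.9, 20.7 and 20.9 FPKM in shGPR81. Its groups did not overlap, and the difference on the log2 scale, -0.34 (SE 0.05, adjusted p = 0.0111, limma), was inside the fold threshold. With a library left out adjusted p was at most 0.0676 and was under 0.05 in 2 of 6 fits. TAP2 was at 27.5, 31.7 and 33.5 FPKM in shNT and at 26.7, 26.7 and 26.7 FPKM in shGPR81, with -0.21 (adjusted p = 0.195, limma). CFTR was listed at 0 in all libraries. Of the 9 genes of the peptide loading complex and proteasome that serve TAP, 8 were below 0, against 48.1% of all genes. Their median was -0.13 and none passed.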

How the data were processed

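Polyadenylated RNA was prepared with a stranded kit and read as single ends of 75 bases. Per the labels, the authors mapped reads with TopHat2 2.0.13, Bowtie2 2.2.3 and SAMtools 0.1.19 and normalized them with Cuffnorm 2.2.1. The labels name the mouse genome mm10 and the study's methods name human hg19. The cells and symbols are human. The deposited values are FPKM, 1 per symbol and library, so a count model could not be the main test, and FPKM does not carry the number of reads. Where the low FPKM values of a gene were whole multiples of each library's step within 0.0001, reads were recovered, for 4497 genes. Reads recovered in this way are known only up to a factor common to all libraries.

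Genes reaching 0.1 FPKM in 3 or more of the 6 libraries were tested on the log2(FPKM + 0.1) scale by limma 3.58.1 (lmFit, then eBayes with trend; R 4.3.3), with Benjamini-Hochberg adjustment over 14349 genes. Fold changes on this scale understate those of low genes. All fold changes are shGPR81 over shNT. Both thresholds, 0.05 on adjusted p and 1.5 on the fold change, are those of the study. An exact permutation test of 3 against 3 libraries cannot go below p = 0.1 and was not used for calls. The scripts were tested on simulated data.

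Members, lists and tests were chosen with earlier results of these data known. Statistics in full are given for ABCB1, ABCC1, ABCG2, called members, the 5 largest differences in each direction and the 5 highest means. Of the tested members, 2 are counted and not otherwise reported here. The neighbourhood of ABCG1 and the 3 others was added after its value was seen. Gene coordinates are from GENCODE 44 on GRCh37, which matched 22422 symbols directly and 1363 through other symbols. Alternatives were other filters, pseudocounts, scalings, centring by chromosome, limma's treat, a replicate block and leaving out each library. Same-numbered libraries of the groups deviated together with correlations of 0.120, 0.0223 and 0.00577 across genes, so the numbers do not pair them.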

Additional observations from a re-analysis of the deposited data

How the results depend on the processing

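ABCG1 was the 1 member called lower and 0 members were called higher under every alternative except a filter of 1 FPKM, which left 22 members, kept ABCG1 from being tested and gave 0 called lower. The median log2 fold change of the tested members ranged from -0.130 to -0.039 with each library left out, and treat gives no median. With each library left out, ABCC9 ranged from -0.026 (without shNT replicate 3) to 0.229 and ABCC5 from -0.011 (without shNT replicate 3) to 0.217, and both were above 0 in the other fits. For the named members, the other alternatives kept the direction and the side of the thresholds on adjusted p and fold combined. With the replicate number as a block, ABCG1 remained the 1 called member (adjusted p = 0.00647, limma), and the numbers do not pair the libraries. Genes with a handful of reads, ABCG1 in shGPR81 among them, are limited by counting, and changes under 1.5-fold by the spread between 3 libraries.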

Other observations

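ABC loci with other symbols showed values of their own. The pseudogene ABCA11P, on chromosome 4, was at 2.87, 2.94 and 2.33 FPKM in shNT and at 3.89, 3.03 and 2.16 FPKM in shGPR81, above most ABCA genes that make protein, with a log2 fold change of 0.12 (adjusted p = 0.812, limma). ABCC6P2 was at 0.34 (adjusted p = 0.416, limma), and ABCC6P1 had 0, 2 and 0 reads in shNT and 3, 0 and 2 in shGPR81. The pseudogene ABCA17P and the antisense genes ABCA9-AS1 and ABCC5-AS1 were listed at 0 in all 6 libraries.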
